A study of Mus musculus with 8 samples.

Results

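The MYC and MAX network was followed at the level of RNA in splenic B cells of diseased transgenic mice. Its members were the 9 gene symbols Myc, Max, Mxd1, Mxd3, Mxd4, Mxi1, Mnt, Mga and Mlx, chosen by name from a matrix of 24902 symbols. All 9 had a count in every library and passed the filter on low counts, among 13173 genes that were tested. The libraries came from 8 mice taken at early removal criteria (ERC), that is, when they were ill enough to be euthanized. There were 4 Eµ-PRMT5 mice, 3 Eµ-PRMT5/TCL1 mice and 1 Eµ-TCL1 mouse. Eµ-PRMT5 mice carry human PRMT5, an arginine methyltransferase, driven in B cells by the immunoglobulin heavy chain Eµ enhancer with a V_H promoter. Eµ-TCL1 mice carry the human TCL1 oncogene under the same kind of control and are a model of chronic lymphocytic leukemia (CLL). Eµ-PRMT5/TCL1 mice carry both transgenes, from a cross of Eµ-PRMT5 with homozygous Eµ-TCL1 animals. The labels give the strain of every mouse as C57BL/6N, whereas the methods place the Eµ-TCL1 parents on C57BL/6J. All 8 mice carried at least 1 transgene, so no comparison here has a non-transgenic control. Age and sex were not used here, and by the methods both sexes were included across experiments. The title of Eµ-PRMT5 mouse 2 bears the identifier that the methods give to a founder animal.

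MYC is a transcription factor that binds DNA only as a dimer with MAX, at the E-box sequence CACGTG, and drives genes of ribosome production, nucleotide synthesis, metabolism and cell division. The MXD proteins (MXD1, MXD3, MXD4 and MXI1, which is also called MXD2) and MNT compete with MYC for MAX and recruit the SIN3 and histone deacetylase corepressor to the same sites. MGA is another MAX partner and belongs to a polycomb repressive complex, PRC1.6. MLX is a sister of MAX that pairs with MXD1, MXD4 and MNT, and with the glucose-responsive factors MLXIP (MondoA) and MLXIPL (ChREBP). In B cells, MYC is low at rest, is induced on activation, and is a recurrent oncogene of aggressive lymphoma.

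Because the members bind this sequence and are themselves genes with promoters, the E-box was sought in the RefSeq promoters of GRCm38.p6, each from 250 bases before to 50 bases after a start site. The motif reads the same on both strands and was the sole motif searched. Of the 9 members, 8 had a promoter entry (all except Myc), and 4 of those 8 held it (50%). Among tested genes with an entry, 1144 of 10156 held it (11.3%), and over all promoters the share was 2349 of 32851 (7.15%). Among the 35 MYC-activated target genes with an entry, 13 held it (37.1%). The 4 windows below are of 30 bases, read 5′ to 3′ on the strand of the gene, with the E-box in capitals, and are shown because these 4 members carry the binding sequence of their own network at their promoters.
Max, chr12:76962234-76962263, minus strand: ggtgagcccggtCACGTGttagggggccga
Mlx, chr11:101087238-101087267, plus strand: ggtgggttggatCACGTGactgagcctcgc
Mnt, chr11:74830789-74830818, plus strand: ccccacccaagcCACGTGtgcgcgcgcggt
Mxd4, chr5:34187912-34187941, minus strand: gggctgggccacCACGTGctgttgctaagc
Counted from the annotated start site, the first base of the E-box lay at -3 in Max, -40 in Mlx, -123 in Mnt and -219 in Mxd4. The motif was not in the windows of Mga, Mxd1 and Mxd3, nor in any of the 3 promoters listed for Mxi1. A match is a description of the letters, and these data hold no measurement of binding.

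Reads on genes ranged from 3356297 to 10252426 per library, and the fewest symbols with a value were in Eµ-PRMT5 mouse 1 (16379, against 20411 to 21475 in the other libraries). Mouse Prmt5 gave 62.7 to 235 CPM over Eµ-PRMT5 mice, 110 to 126 CPM over Eµ-PRMT5/TCL1 mice and 79.5 CPM for Eµ-TCL1. Whether reads of the human PRMT5 transgene were counted with it was not tested. CPM are counts relative to library size after TMM scaling, which sets libraries of different composition on a common scale. Transcripts of the human transgenes were not analysed here, and mouse Tcl1 had a value in 3 of the 8 libraries, with 17, 12 and 0 counts. All 8 listed B cell markers were detected in every library (Cd79a from 411 to 2110 CPM, Cd5 from 16.2 to 57.6 CPM). Markers of other cells were also present: the 10 neutrophil markers together ranged from 426.7 to 9270 CPM, the 8 macrophage markers from 872.2 to 7069 CPM, the 8 T cell markers from 217.9 to 778 CPM, the 5 plasma cell markers from 507.9 to 5740.0 CPM and the 10 erythroid markers from 34.88 to 659.3 CPM. Lck made up much of the T cell sum (121 to 667 CPM, with Cd3e at 6.43 to 55.2 CPM). Lyz2 made up most of the macrophage sum (708 to 6220 CPM). Genes without a value in a library added nothing to its sum. The plasma cell markers were highest in Eµ-PRMT5 mouse 1. Eµ-PRMT5 mouse 4 stood apart, with the lowest summed B cell markers (2326 CPM) and the highest summed proliferation genes (7087 CPM, against 447.6 to 3077 CPM in the others). In bulk samples, fewer cells of a type and less RNA per cell cannot be told apart.

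Myc, on chromosome 15 of GRCm38 from 61985391 to 61990374, was among the most variable members. It measured 55.8, 368, 267 and 211 CPM in Eµ-PRMT5 mice 1 to 4, a mean of 225 ± 130 (SD, n = 4). The Eµ-PRMT5/TCL1 mice had 144, 219 and 474 CPM, a mean of 279 ± 173 (SD, n = 3), and the Eµ-TCL1 mouse had 84.6 CPM. The 2 replicated groups overlapped over most of their range, while the Eµ-TCL1 mouse lay below all 3 double transgenic mice and above Eµ-PRMT5 mouse 1. The highest mouse exceeded the lowest 8.5-fold, on 275 to 3086 counts.

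Max, the shared partner, lies on chromosome 12 from 76937269 to 76962201 and was the steadiest member. Eµ-PRMT5 mice had 168, 122, 115 and 114 CPM (130 ± 25.9, SD, n = 4), Eµ-PRMT5/TCL1 mice had 124, 134 and 109 CPM (122 ± 12.5, SD, n = 3), and the Eµ-TCL1 mouse had 107 CPM. The range over the 8 mice was 1.57-fold, and the value that set its top was that of Eµ-PRMT5 mouse 1, the mouse with the lowest Myc. The same mouse had the highest plasma cell markers (5740.0 CPM, against 507.9 to 2807 CPM in the others), and their part in its network levels was not tested.

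Among the MXD repressors, Mxd4 (chromosome 5, 34173883 to 34187720), known to be expressed as cells leave the cycle, had a 9.1-fold range over the 8 mice. It measured 398, 61.7, 127 and 43.7 CPM in Eµ-PRMT5 mice (157 ± 164, SD, n = 4) and 116, 83.8 and 122 CPM in Eµ-PRMT5/TCL1 mice (107 ± 20.6, SD, n = 3). The Eµ-TCL1 mouse had 301 CPM. The Eµ-TCL1 mouse and Eµ-PRMT5 mouse 1 were the 2 highest for Mxd4 and the 2 lowest for Myc.

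Mxi1 (chromosome 19, 53310518 to 53375810), a repressor that antagonizes MYC, had 48.5, 14.4, 13.7 and 22.5 CPM in Eµ-PRMT5 mice (24.8 ± 16.3, SD, n = 4). In Eµ-PRMT5/TCL1 mice it had 31.6, 29.2 and 11.7 CPM (24.2 ± 10.9, SD, n = 3), and 31.9 CPM in the Eµ-TCL1 mouse. Again Eµ-PRMT5 mouse 1 was highest, and Eµ-PRMT5/TCL1 mouse 3, the highest for Myc, was lowest. The groups overlapped.

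Mxd1 (chromosome 6, 86647042 to 86669161), the first described MAD protein and known from differentiating myeloid cells, had 78.5, 88.0, 37.2 and 82.0 CPM in Eµ-PRMT5 mice (71.4 ± 23.2, SD, n = 4). Eµ-PRMT5/TCL1 mice had 89.7, 73.9 and 42.7 CPM (68.8 ± 23.9, SD, n = 3), and the Eµ-TCL1 mouse had 55.2 CPM. The 2 lowest values belonged to mouse 3 of each replicated genotype, and these mice also had 2 of the 3 lowest summed neutrophil markers (426.7 and 662.8 CPM).

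Mxd3 (chromosome 13, 55325168 to 55329823), the MXD member known to be expressed in S phase, was the lowest by CPM. Eµ-PRMT5 mice had 2.23, 1.90, 3.88 and 16.9 CPM (6.24 ± 7.19, SD, n = 4), and the first 3 of these rest on only 11, 12 and 17 counts. Eµ-PRMT5/TCL1 mice had 4.92, 7.86 and 12.6 CPM (8.46 ± 3.88, SD, n = 3), and the Eµ-TCL1 mouse had 2.43 CPM on 9 counts. All 3 double transgenic mice lay above 3 of the 4 Eµ-PRMT5 mice and below the fourth, Eµ-PRMT5 mouse 4, so the groups overlapped through that 1 mouse. Its proliferation genes were also the highest, and their part in the Mxd3 value was not tested.

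Mnt (chromosome 11, 74830920 to 74845725), the most widely expressed MAX-binding repressor, had 13.2, 22.6, 15.3 and 8.19 CPM in Eµ-PRMT5 mice (14.8 ± 6.0, SD, n = 4). It had 19.8, 25.6 and 17.7 CPM in Eµ-PRMT5/TCL1 mice (21.0 ± 4.09, SD, n = 3) and 10.3 CPM in the Eµ-TCL1 mouse. The double transgenic mice were above 3 of the 4 Eµ-PRMT5 mice, with Eµ-PRMT5 mouse 2 the exception.

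Mga (chromosome 2, 119897228 to 119969581) had 161, 136, 116 and 53.2 CPM in Eµ-PRMT5 mice (117 ± 46.1, SD, n = 4). Eµ-PRMT5/TCL1 mice had 102, 85.2 and 100 CPM (95.8 ± 9.22, SD, n = 3), and the Eµ-TCL1 mouse had 186 CPM, above all 7 other mice. Eµ-PRMT5 mouse 4 was lowest, below the double transgenic mice, and the other Eµ-PRMT5 mice were above them, so the groups overlapped.

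Mlx (chromosome 11, 101087277 to 101092207) was second to Max in steadiness, with 37.5, 34.0, 48.1 and 57.3 CPM in Eµ-PRMT5 mice (44.2 ± 10.6, SD, n = 4) and 48.2, 57.9 and 46.4 CPM in Eµ-PRMT5/TCL1 mice (50.8 ± 6.19, SD, n = 3). The Eµ-TCL1 mouse had 30.6 CPM, below all 7 others. On the opposite strand, Psmc3ip overlaps 19.26% of the exonic bases of Mlx, and shorter overlaps (2.843% to 6.059%) occur in Mxi1, Mxd3 and Mxd4. Whether counting was stranded is not given in the sources used here, so reads in those stretches cannot be assigned to either gene.

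**Figure D1:**
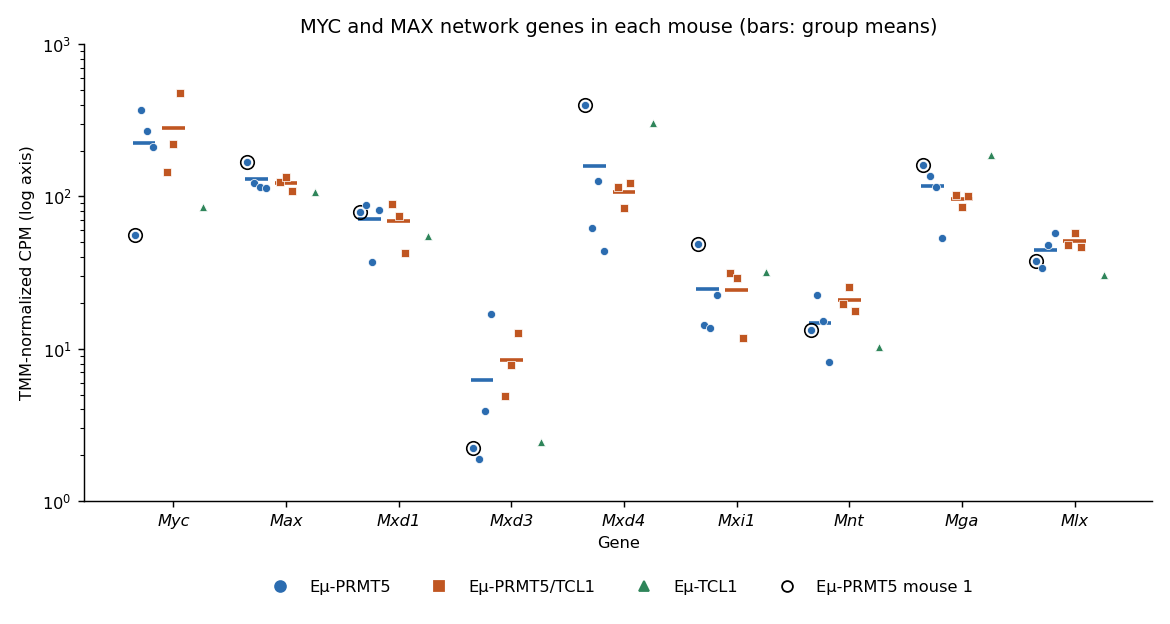
TMM-normalized CPM (vertical log axis) of the 9 network genes (horizontal axis) in each mouse. Each point is 1 mouse, short bars are group means, and the black ring marks Eµ-PRMT5 mouse 1, which had the lowest Myc (55.8 CPM) and the highest Max, Mxd4 and Mxi1.

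The spread over mice differed between members. The SD of log2 CPM over the 8 mice was 1.07 for Mxd4, larger than in 97.4% of the 658 tested genes of like expression, and 1.04 for Myc, larger than in 95.8% of 659. Mxd3 had an SD of 1.11, larger than in 80.9% of genes at its low level. For Mga, Mxi1, Mxd1 and Mnt the SD was between 0.49 and 0.714, larger than in 30.5% to 70.3% of genes of like expression. The 2 dimerization hubs were at the other end. Mlx had an SD of 0.337 (larger than in 17.5%), and Max had 0.21 (larger than in 2.89%). These percentages are a description across genes and carry no test.

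To compare levels between genes, CPM were divided by the length in kilobases of all annotated exons of the gene, merged. The transcripts expressed here may be shorter, so the order of genes and the ratios between them depend on this choice. On this scale Myc was the highest member in the replicated groups, with a level of 82.9 ± 48.0 CPM per kb in Eµ-PRMT5 mice (SD, n = 4) and 103 ± 63.7 in Eµ-PRMT5/TCL1 mice (SD, n = 3). Max followed with 36.1 ± 7.2 and 34.0 ± 3.47 CPM per kb, within 1 SD of Myc in Eµ-PRMT5 mice and outside it in the double transgenic mice. Mlx (22.1 and 25.4 CPM per kb) and Mxd4 (18.6 ± 19.3 and 12.6 ± 2.43) came next, and Mlx and Mxd4 did not differ beyond their spread in Eµ-PRMT5 mice. Mxd1 and Mga stood at 10.1 and 7.6 CPM per kb in Eµ-PRMT5 mice, and Mxi1, Mnt and Mxd3 were lowest, from 2.63 to 3.63 CPM per kb.

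Myc was not the highest member in 2 individual mice. In the sole Eµ-TCL1 animal Mxd4 stood at 35.5 CPM per kb, above Myc at 31.1, and in Eµ-PRMT5 mouse 1 Mxd4 and Max stood at 46.9 and 46.8, both above Myc at 20.5. In the remaining 6 mice Myc exceeded Mxd4 by 3.9-fold to 18.6-fold on the same scale. Myc made up 12.4%, 60.8%, 52.0% and 45.5% of the summed level of the 9 genes over Eµ-PRMT5 mice 1 to 4, 34.1%, 43.3% and 65.6% in the double transgenic mice, and 22.3% in the Eµ-TCL1 mouse.

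Set against its partner, Myc stood at 0.439, 4.01, 3.06 and 2.45 times the level of Max per kb in Eµ-PRMT5 mice, at 1.54, 2.16 and 5.75 times in Eµ-PRMT5/TCL1 mice, and at 1.04 times in the Eµ-TCL1 mouse. Against the summed level of the 6 repressors (the MXD genes, Mnt and Mga), Myc stood at 0.259, 3.72, 2.83 and 2.39 times in Eµ-PRMT5 mice and at 1.21, 2.06 and 4.61 times in Eµ-PRMT5/TCL1 mice. This ratio was 0.492 in the Eµ-TCL1 mouse. On this scale, repressor transcripts outweighed Myc there and in Eµ-PRMT5 mouse 1, and Myc outweighed them in the other 6 mice. RNA levels say nothing of protein.

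**Figure D2:**
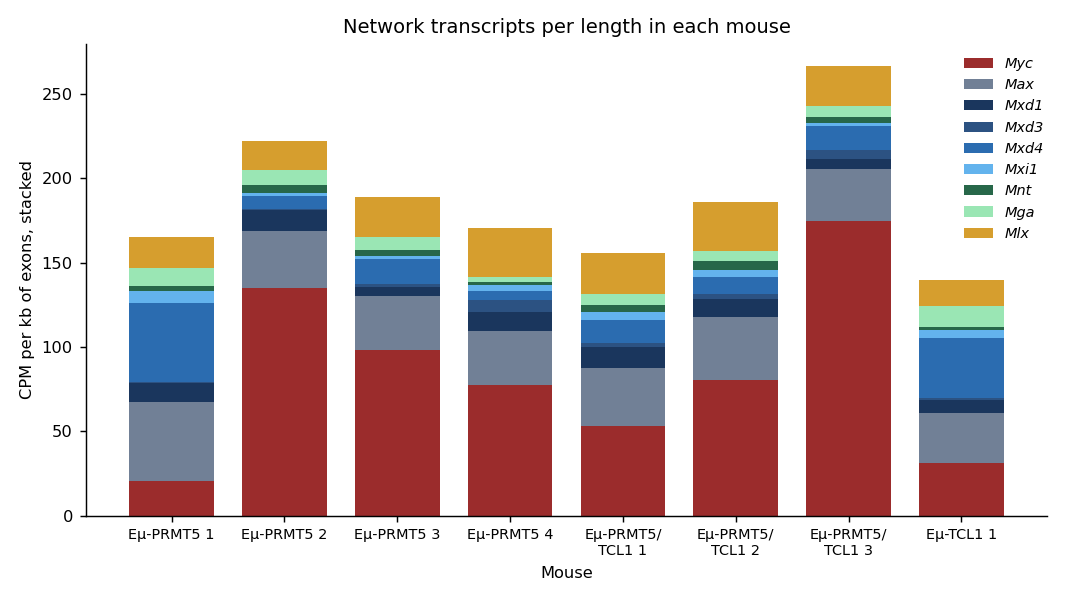
Stacked levels of the 9 network genes in CPM per kb of exons (vertical axis, from 0) in each of the 8 mice (horizontal axis), 1 color per gene. Myc (bottom segment) is 12.4% of the stack in Eµ-PRMT5 mouse 1 and 65.6% in Eµ-PRMT5/TCL1 mouse 3, while the Max segment changes little.

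The first comparison set Eµ-PRMT5/TCL1 against Eµ-PRMT5 mice, which differ by the TCL1 transgene. Median survival in the paper was shorter for double transgenic mice. Age at ERC may therefore differ with genotype, and the 2 cannot be told apart here. None of the 9 members changed at an adjusted p under 0.05 (edgeR quasi-likelihood test with Benjamini-Hochberg adjustment), where the share of all genes was 0.0%. At an unadjusted p under 0.05 the members counted 0 as well, against 2.17% of all genes (0.957% higher and 1.21% lower). In no member were the 2 groups free of overlap, as they were in 2.95% of all genes (1.35% higher and 1.59% lower in the double transgenic mice).

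For Myc the log2 fold change was 0.31 (standard error 0.56, 95% interval -0.92 to 1.53), which became -0.31 without Eµ-PRMT5/TCL1 mouse 3, 0.0074 without Eµ-PRMT5 mouse 1 and 0.65 without Eµ-PRMT5 mouse 2. The smallest p of a member was that of Mnt, with 0.51 on the log2 scale (standard error 0.46, 95% interval -0.50 to 1.51, unadjusted p = 0.295 and adjusted p = 1.0 in edgeR). Max was measured most precisely, at -0.086 (standard error 0.30, 95% interval -0.75 to 0.58). Mxd4 had -0.55 (standard error 0.63), which became 0.50 without Eµ-PRMT5 mouse 1 and -0.86 without Eµ-PRMT5 mouse 4. For Mxd3 the value of 0.42 (standard error 0.77) became 1.67 without Eµ-PRMT5 mouse 4 and 0.017 without Eµ-PRMT5/TCL1 mouse 3, and it was 0.14, 0.12 and 0.25 without Eµ-PRMT5 mouse 1, 2 or 3. Mga had -0.28 (standard error 0.38) and Mlx 0.20 (standard error 0.34). Mxd1 and Mxi1 lay at -0.056 and -0.035, with signs that turned under upper-quartile and library-size scaling. The median over the members was -0.03, against -0.093 over all genes.

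The comparisons with Eµ-TCL1 have 1 mouse on that side, which was assumed to vary like the mice of the replicated groups, and both share that mouse. For Eµ-PRMT5 against Eµ-TCL1, no member passed an adjusted p of 0.05 (edgeR, all genes 0.0%), and 0 passed an unadjusted p of 0.05, against 6.78% of all genes (1.96% higher and 4.82% lower in Eµ-PRMT5). Myc had the smallest p, with a log2 fold change of 1.41 (standard error 0.92, 95% interval -0.59 to 3.42, adjusted p = 0.714 in edgeR). Mxd4 had -0.94 (standard error 0.86), which became -1.86 without Eµ-PRMT5 mouse 1 and -0.63 without Eµ-PRMT5 mouse 4, and Mga had -0.67 (standard error 0.53). The Eµ-TCL1 value lay beyond all 4 Eµ-PRMT5 values in 3 of 9 members (42.4% of all genes). It was below them for Max and Mlx (17.9% of all genes were higher in every Eµ-PRMT5 mouse) and above them for Mga (24.4% were lower).

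For Eµ-PRMT5/TCL1 against Eµ-TCL1, no member passed an adjusted p of 0.05 (edgeR, all genes 0.0%) and 0 passed the unadjusted threshold, against 6.09% of all genes (1.75% higher and 4.33% lower). For Myc the log2 fold change was 1.72 (standard error 0.96, 95% interval -0.37 to 3.81, adjusted p = 0.778 in edgeR), and 1.10 without Eµ-PRMT5/TCL1 mouse 3. Mga had -0.96 (standard error 0.55, 95% interval -2.15 to 0.23) and Mxd4 had -1.49 (standard error 0.88, 95% interval -3.41 to 0.43). The Eµ-TCL1 mouse lay outside the range of the double transgenic mice in 8 of 9 members, with Mxd1 the exception, in a setting where 66.6% of all genes did so. In 5 members every double transgenic mouse was higher (27.6% of all genes) and in 3, Mxd4, Mxi1 and Mga, every one was lower (39.0% of all genes). Taking the 7 other mice as 1 range, the Eµ-TCL1 mouse was above it for 1 member, Mga (21.3% of all genes), and below it for 2, Max and Mlx (14.2% of all genes).

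**Figure D3:**
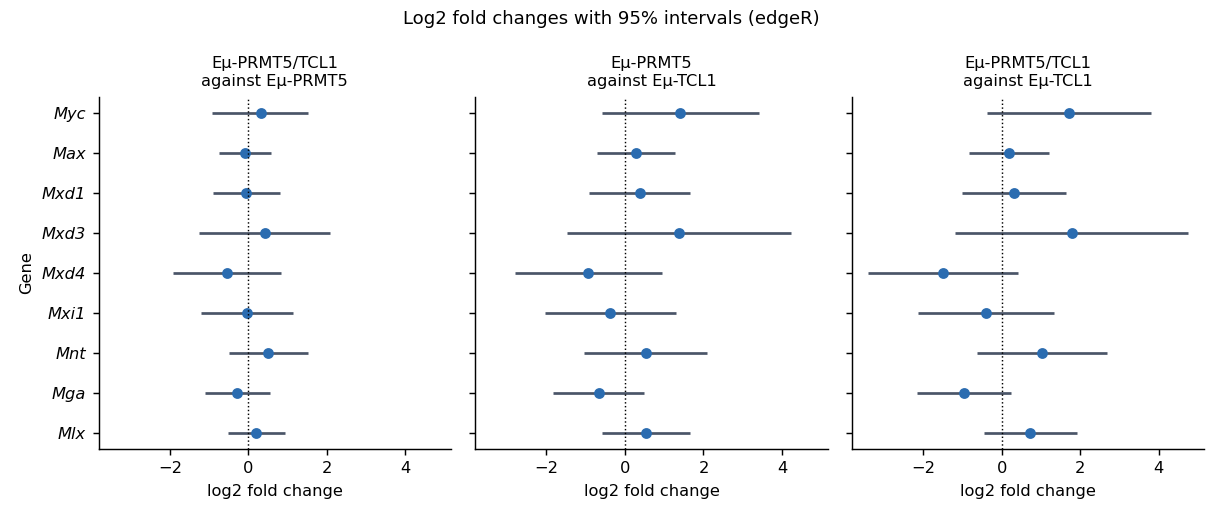
Log2 fold change (horizontal axis) of the 9 network genes (vertical axis) in the 3 comparisons, with points for the edgeR estimate and lines for its 95% interval. Every line crosses 0, and the intervals against the 1 Eµ-TCL1 mouse are wider, for Myc from -0.59 to 3.42 and from -0.37 to 3.81.

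Since no member separated the genotypes past the threshold while several varied widely among mice, they were next related to each other over the 8 mice. For the 36 pairs, p-values are two-sided and come from exact permutation over all 40320 orders of the mice, with Benjamini-Hochberg adjustment over the 36. Myc and Mxi1 moved against each other. Pearson r was -0.922 (exact p = 0.000719, adjusted 0.0259) and Spearman rho -0.952 (exact p = 0.00114, adjusted 0.0411), and r was -0.898 without Eµ-PRMT5 mouse 1 and the Eµ-TCL1 animal, which had the lowest Myc and lay farthest from its median. Of all tested genes, 0.0835% had a lower r with Myc than Mxi1 did, and 1.31% had an r below -0.8. With the group means removed, r over the 7 mice of the replicated genotypes was -0.96. Over the 12 other settings, r stayed between -0.962 and -0.805.

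A pair of further relations passed the adjustment by Pearson r but not by Spearman rho. Mxd3 and Mga had r = -0.886 (exact p = 0.00181, adjusted 0.0271) and rho = -0.881 (exact p = 0.00724, adjusted 0.0869), and r was -0.88 without the 2 farthest mice and -0.904 with the group means removed. Mga and Mlx had r = -0.89 (exact p = 0.00226, adjusted 0.0271) and the same rho, and r was -0.885 without the 2 farthest mice and -0.856 with the group means removed. This relation depended on the scaling, with r = -0.661 (exact p = 0.0634) under upper-quartile factors and r = -0.589 (exact p = 0.121) with library size only. Mga, Mlx and Mxd3 also moved with other lists, without passing the adjustment over 72 relations. Mga had r = -0.813 with erythroid markers (exact p = 0.0111, adjusted 0.266), -0.775 with proliferation genes (exact p = 0.0258, adjusted 0.283) and 0.738 with plasma cell markers (exact p = 0.0328, adjusted 0.283). Mlx had r = -0.754 with plasma cell markers (exact p = 0.0329, adjusted 0.283) and 0.677 with erythroid markers (exact p = 0.0661, adjusted 0.366). With proliferation genes its r was 0.68 (exact p = 0.0626, adjusted 0.366). The part of these lists in the relations among the 3 members was not tested.

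Myc and Mxd4, although opposite in 2 mice, were not related beyond them. Their r was -0.734 (exact p = 0.038, adjusted 0.228) with rho of -0.452 (exact p = 0.267), and r was 0.0866 without the Eµ-TCL1 mouse and Eµ-PRMT5 mouse 1. The relation rests on those 2 mice. Max, the common partner, had no relation to another member that passed the adjustment, the largest being with Mxi1 at r = 0.651 (exact p = 0.066, adjusted 0.339).

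The members were also related to 8 gene lists, scored as the mean log2 CPM of the tested genes of each list in each mouse, in 72 relations. The scores held 5 of 8 macrophage markers (without C1qa, C1qb and C1qc), 6 of 8 T cell markers and 7 of 10 erythroid markers. Mxd3 followed the 18 proliferation genes. Pearson r was 0.887 (exact p = 0.00265, adjusted 0.143) and rho 0.976 (exact p = 0.000397, adjusted 0.0286), so it passed the adjustment by rank only, and r was 0.762 without the 2 farthest mice and 0.809 without Eµ-PRMT5 mouse 4. The proliferation genes summed to 653.5, 447.6, 1236 and 7087 CPM in Eµ-PRMT5 mice, 2548, 1359 and 3077 in Eµ-PRMT5/TCL1 mice, and 1106 CPM with TCL1 alone. Mxd3 had r = 0.731 with erythroid markers (exact p = 0.0395, adjusted 0.284, not past the adjustment), which were highest in the same Eµ-PRMT5 mouse 4, and their part was not tested.

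Mxd4 ran against the 41 tested MYC-activated targets, with r = -0.902 (exact p = 0.00397, adjusted 0.143) and rho = -0.905 (exact p = 0.00456, adjusted 0.13), and r was -0.806 without the 2 farthest mice. Myc itself had a smaller r with those targets, 0.695 (exact p = 0.0555, adjusted 0.363) with rho of 0.619, although the 2 values of r were not tested against each other. Mga also ran against the targets, with r = -0.741 (exact p = 0.0338, adjusted 0.283) and rho = -0.738, but r was -0.161 without the 2 farthest mice. None of these relations passed the adjustment. Summed over the list, the targets measured 5918, 12551, 6907 and 17522 CPM in Eµ-PRMT5 mice, 7550, 8521 and 9952 in Eµ-PRMT5/TCL1 mice, and 4035 CPM with TCL1 alone. The lowest sums were those of the Eµ-TCL1 mouse and of Eµ-PRMT5 mouse 1, the same 2 mice in which Mxd4 exceeded Myc per kb.

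Mxd1 tended to be higher where markers of neutrophils and the 5 tested macrophage markers were high (r = 0.8, exact p = 0.023, and r = 0.718, exact p = 0.0354, neither past the adjustment). Without the 2 farthest mice, r was 0.642 and 0.555. C1qa, C1qb and C1qc, outside the macrophage score, had their highest counts in Eµ-PRMT5 mouse 4 and no value in Eµ-PRMT5 mouse 1. Mxd1 was similar in these mice, at 82.0 and 78.5 CPM. The neutrophil markers summed to 2703, 2159, 426.7 and 5404 CPM in Eµ-PRMT5 mice, 9270, 5175 and 662.8 in Eµ-PRMT5/TCL1 mice, and 604.3 CPM with TCL1 alone. Elane, which encodes neutrophil elastase, ranged from 18.2 to 900.0 CPM, S100a8 from 17.3 to 640.0 CPM and Ngp from 106 to 2320.0 CPM. Their part in the Mxd1 level was not tested.

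**Figure D4:**
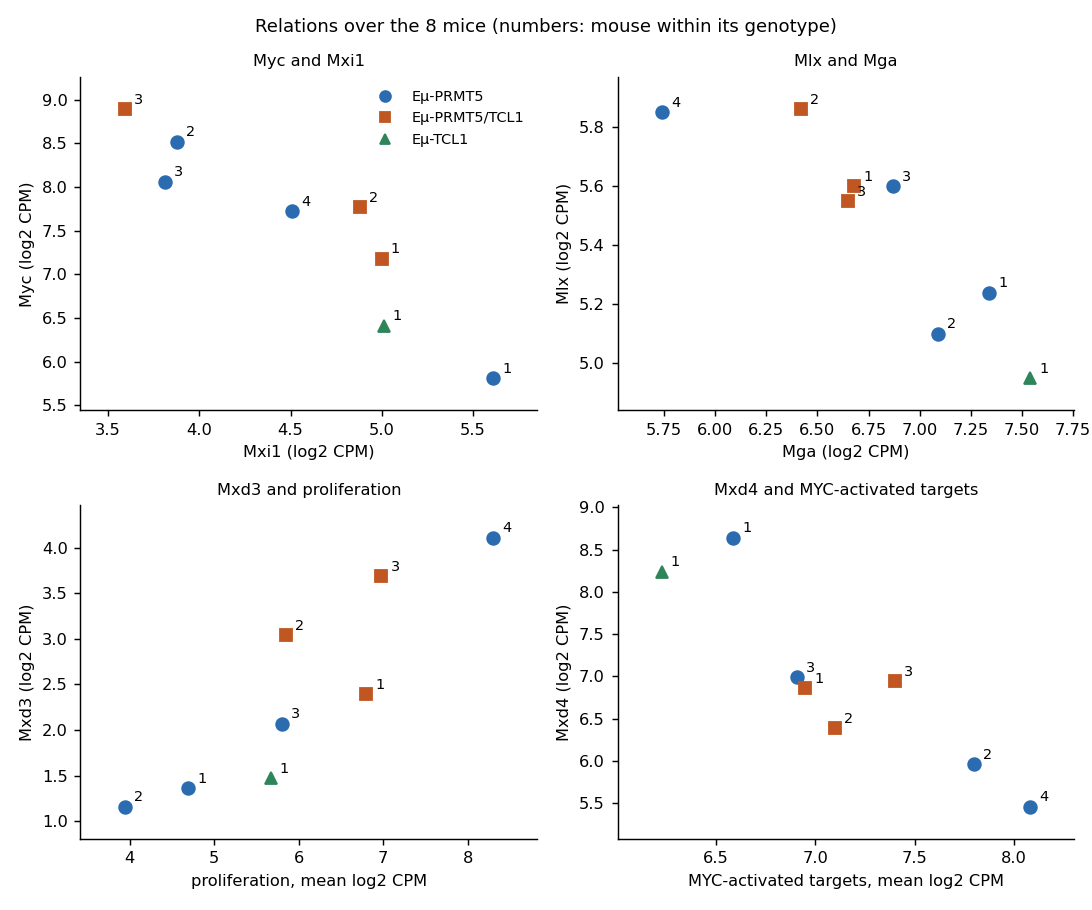
Each panel plots 1 network gene (vertical axis, log2 CPM) against another gene or the mean log2 CPM of the tested genes of a list (horizontal axis). Each point is 1 of the 8 mice, numbered within its genotype. Myc falls along Mxi1 (r = -0.922), Mlx along Mga (r = -0.89) and Mxd4 along the MYC-activated targets (r = -0.902), and Mxd3 climbs along the proliferation genes (r = 0.887). Of these, only Myc with Mxi1 passed the adjustment by both Pearson r and Spearman rho, and Mxd4 with the targets passed by neither.

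The paralogs of MYC and the partners of MLX were examined next. Mlxip, the MondoA gene, was steady at 85.0, 87.1, 71.1 and 72.5 CPM in Eµ-PRMT5 mice, 67.7, 65.9 and 68.8 in Eµ-PRMT5/TCL1 mice, and 91.4 CPM with TCL1 alone. The double transgenic mice were all below the Eµ-PRMT5 mice, as in 1.59% of all genes, and below the Eµ-TCL1 mouse, as in 39.0%. The log2 fold change against Eµ-PRMT5 was -0.23 (standard error 0.29, adjusted p = 1.0 in edgeR). Mycn, Mycl and Mlxipl lacked a value in at least 1 library and were not tested. Mycn had 1.23 to 7.75 CPM in the 5 other libraries with a value and 16.8 CPM in the library of the Eµ-TCL1 animal, Mlxipl had 2.42 to 18.9 CPM in 7 libraries, and Mycl had at most 1.64 CPM in the 3 libraries with a value. Txnip and Arrdc4, known targets of the MLXIP and MLX dimer, ranged from 101 to 481 CPM and from 1.08 to 30.7 CPM, and had log2 fold changes of -0.31 and -0.05 in Eµ-PRMT5/TCL1 against Eµ-PRMT5 mice (both adjusted p = 1.0 in edgeR).

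Of the 16 genes of the SIN3 corepressor, through which the MXD proteins act, none passed the adjusted or the unadjusted threshold in any of the 3 comparisons. With the double transgenic mice set against Eµ-PRMT5, 4 had a positive and 12 a negative log2 fold change, with a median of -0.33 against -0.093 over all genes, and 0.0013 without Eµ-PRMT5 mouse 1. The extremes were the deacetylase genes Hdac2 (0.40, standard error 0.35) and Hdac1 (0.24, standard error 0.36) at the top, and Sap18 (-0.61, standard error 0.37), a SIN3-associated protein, and the corepressor Ncor1 (-0.59, standard error 0.44) at the bottom. Ncor1 measured 492 CPM in Eµ-PRMT5 mouse 1 and 147 to 225 CPM in the other mice.

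The 11 genes of the MGA complex had a median of -0.078, with 4 positive and 7 negative values and none past either threshold. Ring1, a ubiquitin ligase of polycomb complexes, had 0.53 (standard error 0.41), and E2f6, a DNA-binding repressor of the complex, had 0.14 (standard error 0.41). Cbx3, a heterochromatin protein, had -0.78 (standard error 0.48) and Pcgf6, the subunit that defines PRC1.6, had -0.53 (standard error 0.46).

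The 15 MYC coactivators also held no gene past either threshold in any comparison, with 6 positive and 9 negative values and a median of -0.16. Zbtb17, whose product MIZ1 binds MYC at repressed promoters, had 0.30 (standard error 0.38) and the acetyltransferase gene Kat2a had 0.25 (standard error 0.50). Crebbp, a further acetyltransferase gene, had the lowest value (-0.70, standard error 0.53) and was highest in Eµ-PRMT5 mouse 1, at 713 CPM.

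Against the 1 Eµ-TCL1 mouse, the 16 tested genes that act on MYC protein turnover had a median of 0.34 in Eµ-PRMT5 mice (0.042 over all genes). In Eµ-PRMT5/TCL1 mice it was -0.21 (-0.073 over all genes). In Eµ-PRMT5/TCL1 against Eµ-PRMT5 mice, 4 were positive and 12 negative (median -0.20), with none past the adjusted or the unadjusted threshold. Skp2, an F-box protein, had 0.32 (standard error 0.73) and the kinase gene Pim2 had 0.24 (standard error 0.47). Set, an inhibitor of the phosphatase that removes a stabilizing phosphate from MYC, had -1.0 (standard error 0.47, unadjusted p = 0.056), and Pim1 had -0.86 (standard error 0.56).

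Among 41 tested MYC-activated targets, 7 had a positive and 34 a negative log2 fold change in Eµ-PRMT5/TCL1 against Eµ-PRMT5 mice, with a median of -0.39 against -0.093 over all genes. The median was -0.015 without Eµ-PRMT5 mouse 4, which had the highest summed targets of the 8 mice. No gene passed the adjusted threshold and 1 of 41 the unadjusted (2.17% of all genes), Ccnd2, which encodes cyclin D2. It measured 268, 434, 393 and 264 CPM in Eµ-PRMT5 mice (340 ± 86.6, SD, n = 4), 559, 506 and 828 CPM in Eµ-PRMT5/TCL1 mice (631 ± 172, SD, n = 3) and 126 CPM in the Eµ-TCL1 mouse. The replicated groups did not overlap for Ccnd2, as in 1.35% of all genes in this direction, with a log2 fold change between the replicated groups of 0.89 (standard error 0.36, unadjusted p = 0.0273, adjusted p = 1.0 in edgeR). Farsa, a tRNA synthetase subunit gene, had 0.26 (standard error 0.35), and the lowest values were those of the hexokinase gene Hk2 (-0.95, standard error 0.59) and of Gnl3, which encodes nucleostemin (-0.83, standard error 0.48).

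Against the Eµ-TCL1 mouse the same 41 targets lay on the positive side, 41 of 41 in Eµ-PRMT5 (median 1.1 against 0.042 over all genes) and 40 of 41 in Eµ-PRMT5/TCL1 mice (median 0.85 against -0.073). None passed the adjusted threshold, and 13 and 5 of 41 passed the unadjusted one, all of them higher, beside 1.96% and 1.75% of all genes that did so in this direction. The medians were 0.86 and 0.63 with library size only, where 40 and 36 of 41 were positive. Both counts rest on the 1 Eµ-TCL1 mouse. Other lists moved the same way against it. Of 18 proliferation genes 16 were positive in both comparisons (medians 1.0 and 0.9), as were all 10 neutrophil markers (2.1 and 2.7) and all 7 tested erythroid markers (2.6 and 1.9), and all 6 tested T cell markers were positive in Eµ-PRMT5 mice (1.0). Their part in the level of the targets was not tested.

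The 7 tested MYC-repressed genes had a median of -0.056 in Eµ-PRMT5/TCL1 against Eµ-PRMT5 mice, with 3 positive and 4 negative values and none past either threshold in any comparison. The cyclin-dependent kinase inhibitor genes Cdkn2c (0.63, standard error 0.93) and Cdkn1b (-0.93, standard error 0.59) were at opposite ends, beside the stress gene Gadd45a (0.38, standard error 0.67) and Ndrg2 (-0.35, standard error 1.12). Their median was 0.42 without Eµ-PRMT5 mouse 1 and -0.77 without Eµ-PRMT5/TCL1 mouse 1.

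Among 9924 genes with a mean of at least 10 CPM, those whose level was most like that of Myc over the 8 mice were Josd2 (r = 0.964), Ppox (0.964), Odf2l (0.953), Rbck1 (0.952) and Alg3 (0.951). Alg3, for example, had 20.3, 82.8, 63.1 and 61.8 CPM in Eµ-PRMT5 mice, 45.4, 41.5 and 73.0 in Eµ-PRMT5/TCL1 mice, and 24.6 CPM with TCL1 alone. An r above 0.8 with Myc was reached by 0.926% of 13172 genes, and these values are a description over libraries that share their scaling.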

How the data were processed

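RNA of splenic B cells was sequenced in bulk from 8 separate mice. The values deposited by the authors are raw counts for each symbol and mouse. By the methods, cDNA from a low input of RNA was preamplified and sequenced in pairs, transcripts were filtered by the CLEAR workflow and tested with DESeq2 1.20.0. The labels describe a stranded mRNA kit instead. Their processing notes name GRCm38, Subread and featureCounts, while the aligner, annotation, strand setting and the meaning of 36919 cells that hold NA are not given for these libraries in the sources used here (the methods name STAR and an Ensembl annotation for the study's stranded RNA-seq).

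Here 14072 symbols without a missing value were kept. Testing was with edgeR 4.0.16 (R 4.3.3), with TMM factors, its expression filter by group (13173 genes), 1 model over the 3 genotypes in the labels, a quasi-likelihood F test and adjustment by Benjamini-Hochberg. Unlike the study, edgeR was the main test and DESeq2 1.42.0 an alternative. The biological coefficient of variation was 0.483. Log2 CPM used a prior count of 2. Standard errors were the log2 fold change over the root of the F statistic. The code was tested on simulated counts. Exonic lengths and positions are from GENCODE vM21 (GRCm38), and Python 3.11.15 with scipy 1.17.1 was used for relations. Genes of like expression were taken in 20 bins.

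The members and gene lists were chosen with earlier results of these data known. All members were named, with the extremes of each pathway list, a fixed set of markers, and the 5 genes closest to Myc, except that some genes under this rule are not reported here. Same-numbered mice of the 2 replicated genotypes deviated together little (correlations 0.0213, 0.106 and 0.162), so the numbers were not read as pairs. Alternatives were other scalings and filters, NA as 0, only the 2 groups compared, a replicate block, and each mouse left out. The settings for relations were chosen after seeing the data. Libraries held 3356297 to 10252426 counts without molecular identifiers, so that low genes such as Mxd3 carry a large counting error.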

Additional observations from a re-analysis of the deposited data

Results flagged for a closer look

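In 9 groups of 4 Eµ-PRMT5 mice, 1 for each network gene, the highest or lowest mouse was compared with the rest of the group by Dixon's ratio on CPM. Of these, 2 were past the 95% critical value, where chance gives about 0.45 if values are normally distributed. Whether CPM are so distributed was not tested. Max in Eµ-PRMT5 mouse 1 measured 168 CPM, against 114 to 122 CPM in the other 3 (ratio 0.863). That library had the fewest symbols with a value, 16379. Mxd3 in Eµ-PRMT5 mouse 4 measured 16.9 CPM, against 1.90 to 3.88 CPM in the other 3 (ratio 0.869). That library had the highest summed proliferation genes, 7087 CPM, and the lowest summed B cell markers, 2326 CPM. The part of these features in either value was not tested.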

How the results depend on the processing

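No member passed an adjusted p of 0.05 under the settings that gave one (DESeq2 gave none for Mxd3 in Eµ-PRMT5/TCL1 against Eµ-TCL1), and the smallest was 0.175 (Mxd4, Eµ-PRMT5/TCL1 against Eµ-TCL1, only the 2 groups compared). DESeq2 called 3 genes higher and 1 lower in Eµ-PRMT5/TCL1 against Eµ-PRMT5, 4 and 14 in Eµ-PRMT5 against Eµ-TCL1, and 9 and 7 in Eµ-PRMT5/TCL1 against Eµ-TCL1, where edgeR called 0. Of 402 log2 fold changes of members over all settings, 384 kept their sign and side of the threshold and 18 changed sign, 9 of them with 1 mouse left out. In Eµ-PRMT5/TCL1 against Eµ-PRMT5, Mxd1 and Mxi1 turned to 0.042 and 0.07 with upper-quartile factors, 0.0066 and 0.041 with library size only, and 0.042 and 0.048 with the replicate block. Mxi1 turned to 0.011 with at least 10 counts in every library, a filter that drops Mxd3. The block setting held mice 1 to 3 of each replicated genotype, and in these 6 mice without the block Mxd1 turned to 0.016. Against Eµ-TCL1, Max in double transgenic mice turned to -0.036 with library size only, a scaling that moves the median of all genes by -0.23 there and by -0.25 for Eµ-PRMT5 against Eµ-TCL1. The cause of these turns was not tested.

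With 1 mouse left out, the log2 fold changes in Eµ-PRMT5/TCL1 against Eµ-PRMT5 ranged from -0.31 to 0.65 for Myc, -0.16 to 0.08 for Max, -0.29 to 0.19 for Mxd1, 0.017 to 1.67 for Mxd3, -0.86 to 0.50 for Mxd4 and -0.28 to 0.52 for Mxi1. Members at an unadjusted p under 0.05 numbered 0 to 1 in Eµ-PRMT5/TCL1 against Eµ-PRMT5 (Mxd3, without Eµ-PRMT5 mouse 4). Of all genes, 392 were then higher and 368 lower past that threshold, against 126 and 160 with all mice. The 6 mice of the replicate block also lack Eµ-PRMT5 mouse 4. In them Mxd3 passed with the block (495 genes higher and 331 lower) and without it (374 and 368), which is the same omission. In the comparisons with the 1 Eµ-TCL1 mouse, Myc, Mxd4 or Mga passed in some settings, in each of which more of all genes passed than in the main fit. With only the 2 groups compared, their log2 fold changes in Eµ-PRMT5/TCL1 against Eµ-TCL1 were 1.85, -1.37 and -0.84. Without Eµ-PRMT5 mouse 1, Myc and Mxd4 had 1.84 and -1.86 in Eµ-PRMT5 against Eµ-TCL1. Members without overlap between the replicated groups ranged from 0 to 2 (Mnt without Eµ-PRMT5 mouse 2, Mxd3 and Mga without Eµ-PRMT5 mouse 4). Smaller groups part more easily, and no share over all genes is given for these smaller sets, so this range is not read as a difference between genotypes. The median of MYC-repressed genes ranged from -0.77 to 0.42 and that of SIN3 genes from -0.43 to 0.0013. The median of MYC-activated targets was 0.051 with the replicate block and -0.017 without it in the same 6 mice, which lack Eµ-PRMT5 mouse 4, against -0.39 with all mice. The block changed no other call. Genes under about 20 counts, such as Mxd3, limit what the depth can resolve.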
